A study of Mus musculus with 8 samples.

Results

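The genes described here are the 3 TGF-beta ligands (Tgfb1, Tgfb2, Tgfb3), their 3 receptors (Tgfbr1, Tgfbr2, Tgfbr3), the latency protein gene Ltbp1 and the matricellular genes Ccn1 and Ccn2. They were taken by name, and these 9 genes of the 55471 in the count tables were all abundant enough to be tested. RNA came from pieces of heart of untreated mice at 14 weeks of age, with 4 wild-type (WT) and 4 TAZG197V libraries. TAZG197V mice carry a point mutation, made with CRISPR/Cas9, that replaces glycine by valine in Tafazzin, the acyltransferase of mitochondria that matures cardiolipin and whose mutations cause Barth syndrome. The gene is X-linked, and the mice were hemizygous males of a C57BL/6N and C57BL6/J background. The mutation is present in every cell of the animal, so the comparison is of pieces of heart and of no single cell type. Tafazzin shares the short name TAZ with the YAP partner encoded by Wwtr1, which is a different protein.

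TGF-beta ligands are secreted in a latent form, bound to their own propeptide and, through it, to latency proteins such as LTBP1 in the extracellular matrix. Integrins and proteases free the ligand, which binds TGFBR2 and then TGFBR1, and the receptor complex phosphorylates SMAD2 and SMAD3. Tgfbr3 encodes betaglycan, a coreceptor that presents ligand and is needed above all for TGF-beta 2. In the heart the pathway is best known for driving fibroblasts to make matrix, and CCN1 and CCN2 are matricellular proteins whose genes respond to TGF-beta, to stretch and to the YAP-TEAD factors.

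Library totals lay between 23055689 and 36301031 counts, and CPM stands for a count divided by its TMM-scaled library size. A gene was called when its adjusted p was under 0.05 in edgeR's quasi-likelihood test over 15084 genes, its fold change was beyond 1.15 and its mean scaled count was at least 50. The transcript of the edited gene Taz lay at 58.7 to 63.8 CPM in WT and 44.3 to 50.4 CPM in TAZG197V, so all 4 TAZG197V libraries were lower (log2 fold change -0.37, edgeR adjusted p = 0.00124). The summed level of 7 cardiomyocyte markers was 55900 to 62800 CPM in WT and 46500 to 50700 CPM in TAZG197V, so heart muscle transcripts abounded in every library, and 4 of the 7 were called lower. Several libraries stood apart. Red cell markers summed to 55100 CPM in WT 4 against at most 1070 CPM in the other libraries, and platelet markers to 210.0 CPM in WT 4 against at most 37.8 CPM. Neutrophil markers summed to 78.4 CPM in WT 4 against at most 5.28 CPM, and lymphocyte markers to 55.5 CPM against at most 3.84 CPM. Neural markers reached 90.9 CPM in WT 4 and 210.0 CPM in TAZG197V 4 against at most 9.81 CPM elsewhere. WT 2 had the highest level of 4 atrial markers (1060 CPM against at most 130.0 CPM) and of 7 fibroblast markers (1490 CPM against at most 935 CPM). No marker of these lists was at 0 in every library.

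Of the 9 genes, 3 were called higher in TAZG197V hearts (Tgfb2, Ccn1, Ccn2), 4 were called lower (Tgfb1, Tgfbr2, Tgfbr3, Ltbp1), and Tgfb3 and Tgfbr1 were not called. The background is broad, since 33.5% of all genes tested were called, 18.5% higher and 15.1% lower. Without both WT 4 and TAZG197V 4, 5193 of 15232 genes tested were called, 2833 higher and 2360 lower. The 4 TAZG197V libraries lay beyond all 4 WT libraries for 1 of the 9 genes on the higher side (Tgfb2) and for 3 on the lower side (Tgfb1, Tgfbr2, Ltbp1), beside 19.3% and 13.9% of all genes tested. Over all genes tested the median log2 fold change was -0.01. These are levels of RNA in a tissue, in which fewer cells of a type and less RNA per cell cannot be told apart.

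The sequences just before the start sites of 3 of these genes are shown first because they are the gene that rose most, the Ccn gene with a sequence in the table used, and the gene that fell most. Each run is the 250 bases before an annotated start in RefSeq on build GRCm38.p6, read 5′ to 3′ on the strand of the gene. Capitals mark matches, on either strand, to GGAATG (bound by TEAD factors) or CAGACA (the extended SMAD box), and TGANTCA (AP-1) and the CArG box (serum response factor) were searched as well. The starts are Tgfb2 at chr1:186705990-186706239 (minus strand), Ccn1 at chr3:145649986-145650235 (minus strand), and Ltbp1 at chr17:75005279-75005528 and chr17:75178531-75178780 (plus strand).
Tgfb2: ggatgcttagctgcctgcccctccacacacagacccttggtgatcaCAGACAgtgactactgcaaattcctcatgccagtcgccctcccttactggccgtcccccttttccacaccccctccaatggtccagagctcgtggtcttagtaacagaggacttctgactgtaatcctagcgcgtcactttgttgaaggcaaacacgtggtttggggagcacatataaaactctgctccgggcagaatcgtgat
Ccn1: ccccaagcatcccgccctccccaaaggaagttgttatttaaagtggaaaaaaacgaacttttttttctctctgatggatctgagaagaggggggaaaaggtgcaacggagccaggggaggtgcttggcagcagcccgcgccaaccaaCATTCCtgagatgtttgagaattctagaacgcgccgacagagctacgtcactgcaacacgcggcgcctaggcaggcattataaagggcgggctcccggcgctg
Ltbp1, upstream start: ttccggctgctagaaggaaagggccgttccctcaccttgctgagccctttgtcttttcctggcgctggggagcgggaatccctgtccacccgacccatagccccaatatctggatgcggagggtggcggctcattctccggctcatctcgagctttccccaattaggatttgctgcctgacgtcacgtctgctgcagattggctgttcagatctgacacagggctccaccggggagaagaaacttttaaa
Ltbp1, downstream start: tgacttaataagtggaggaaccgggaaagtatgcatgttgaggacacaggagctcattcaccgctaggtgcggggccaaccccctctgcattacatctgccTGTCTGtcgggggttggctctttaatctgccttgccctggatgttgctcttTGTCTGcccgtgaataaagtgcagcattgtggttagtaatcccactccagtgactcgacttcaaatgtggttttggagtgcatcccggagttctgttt

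The Tgfb2 run held 1 SMAD box, 204 bases before the start, and no match to the other motifs. The Ccn1 run held 1 TEAD match on the opposite strand, 103 bases before the start. The upstream start of Ltbp1 had no match, and the downstream start had 2 SMAD boxes on the opposite strand, 149 and 98 bases before it. Among 32851 promoter windows of the same length in the RefSeq table, 12.6% held the TEAD motif, 17.1% the SMAD box, 6.75% the AP-1 motif and 1.47% a CArG box. A match is a string of letters and does not show that a factor binds there. In all, 6 of the 9 genes had an entry, with 8 start sites among them. Of those not printed, the downstream start of Tgfbr1, a gene not called, had 1 SMAD box 203 bases before it. The upstream start of Tgfbr1 and the starts of Tgfb1 and Tgfbr2, both called lower, had no match.

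The ligands come first. Tgfb2 (ENSMUSG00000039239, chromosome 1, 186622792 to 186705989, minus strand, mm10) encodes the isoform best known from heart valve and septum development. Its level was 11.1, 16.2, 10.6 and 8.97 CPM in WT 1 to WT 4 and 31.6, 29.4, 20.7 and 34.4 CPM in TAZG197V 1 to TAZG197V 4. Every TAZG197V library was above every WT library, and the lowest of them was TAZG197V 3. The mean rose from 11.7 ± 3.12 to 29 ± 5.93 CPM (SD, n = 4 each), and the fitted log2 fold change was 1.43 ± 0.131 (standard error, 95% interval 1.13 to 1.73, edgeR adjusted p = 0.000125). It passed the adjusted p of 0.05 in all 17 other fits, which changed the tool, the scaling, the covariates or the filter or left out libraries, with log2 fold changes from 1.11 to 1.60. Where libraries were left out the surrogate variables were estimated again, and the fits without WT 2, WT 4, TAZG197V 4 or both number 4 libraries had 1 of them in place of 2.

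Tgfb1 (ENSMUSG00000002603, chromosome 7, 25687002 to 25705077, plus strand), the isoform most studied in fibrosis and immune control, moved the other way. Its level was 16.6, 16.3, 17.9 and 18.9 CPM in the WT libraries and 13.9, 13.6, 13.7 and 11.6 CPM in the TAZG197V libraries. The groups did not overlap, and TAZG197V 4 was the lowest. The mean fell from 17.4 ± 1.2 to 13.2 ± 1.1 CPM (SD, n = 4 each), a log2 fold change of -0.43 with a standard error of 0.0745 (95% interval -0.60 to -0.26, edgeR adjusted p = 0.00274). All 17 other fits passed, from -0.48 to -0.30. The platelet, neutrophil and lymphocyte markers stood highest in WT 4, and their part in the level of Tgfb1 was not tested. Without WT 4 and TAZG197V 4 together the log2 fold change was -0.30 (edgeR adjusted p = 0.0139).

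Tgfb3 (ENSMUSG00000021253, chromosome 12, 86056745 to 86079041, minus strand) is the remaining isoform. It measured 15.6, 22.4, 15.8 and 14.4 CPM in WT and 17.9, 17.9, 16.0 and 19.8 CPM in TAZG197V. The highest value was that of WT 2 and the groups overlapped. The log2 fold change was 0.16 with a 95% interval of -0.01 to 0.32 (edgeR adjusted p = 0.113), and its sign turned in some fits, reaching -0.05 without both number 4 libraries. Of its exon bases 12.4% lie in other annotated genes (Gm37804 and Gm48008), which themselves had at most 5 counts in a library.

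**Figure D1:**
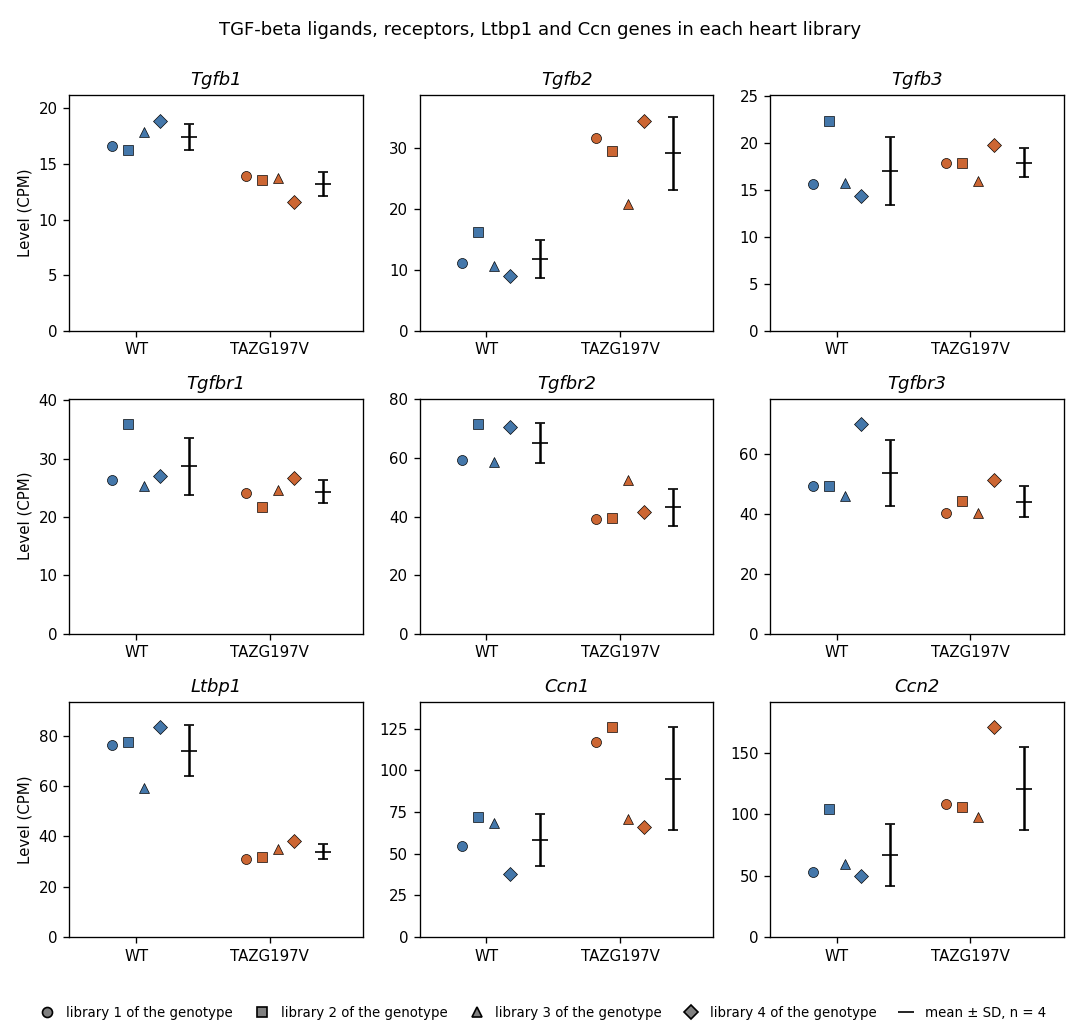
Level of each of the 9 genes (CPM, linear axis from 0) in each library; the marker shape gives the library number, colour the genotype, and black bars the mean ± SD of 4 libraries. Tgfb2 at 8.97 to 16.2 CPM in WT and 20.7 to 34.4 CPM in TAZG197V is the only rise without overlap, whereas Ltbp1 fell from 59.4 to 83.5 CPM to 31.1 to 38.0 CPM.

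Because a ratio within a library does not depend on its scaling, the balance of the isoforms was compared as well, on levels per kilobase of exon. Tgfb2 made up 19.5%, 22.1%, 18.2% and 16.2% of the summed ligand level in WT and 40.4%, 38.8%, 32.4% and 42.2% in TAZG197V. The share rose from 19.0% ± 2.48 to 38.5% ± 4.27 (SD, n = 4 each), with no overlap between genotypes. The exact permutation test gave p = 0.0286 (two-sided), the smallest that 4 against 4 allows, and 0.0667 after adjustment over the 7 balances tested, so the adjusted value did not pass 0.05. The share of Tgfb1 went from 33.4% ± 5.75 to 20.5% ± 3.41 and that of Tgfb3 from 47.6% ± 3.32 to 41.1% ± 1.59. Summed over the isoforms the level was 10.5 ± 1.43 CPM per kilobase in WT and 12.9 ± 1.33 in TAZG197V, with overlapping ranges of 9.57 to 12.6 and 11.0 to 14.1.

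In WT the ligand isoforms stood in the order Tgfb3, Tgfb1, Tgfb2, at 5.04 ± 1.06, 3.46 ± 0.239 and 2.02 ± 0.539 CPM per kilobase, and the libraries of one did not overlap those of the next. In TAZG197V the order was Tgfb3, Tgfb2, Tgfb1 at 5.30 ± 0.45, 5.01 ± 1.02 and 2.62 ± 0.218, where Tgfb3 and Tgfb2 overlapped. The log2 ratio of Tgfb2 to Tgfb1 was -0.81 ± 0.45 in WT and 0.92 ± 0.40 in TAZG197V, negative in all 4 WT libraries and positive in all 4 TAZG197V libraries (exact permutation p = 0.0286, adjusted 0.0667). The log2 ratio of Tgfb2 to Tgfb3 rose from -1.33 ± 0.10 to -0.10 ± 0.21 with the same p-values, whereas that of Tgfb3 to Tgfb1 overlapped between genotypes (exact permutation p = 0.114, adjusted 0.16).

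**Figure D2:**
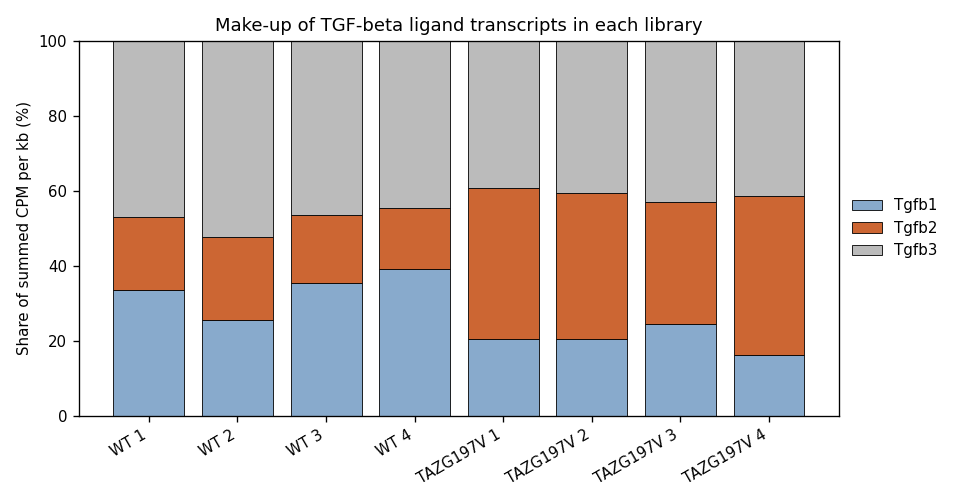
Stacked bars give the percent of the summed TGF-beta ligand level (CPM per kilobase of exon) that each isoform took in each of the 8 libraries. The Tgfb2 part spans 16.2% to 22.1% in WT and 32.4% to 42.2% in TAZG197V.

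All 3 receptor genes had lower means in TAZG197V, and 2 of them were called. Tgfbr2 (ENSMUSG00000032440, chromosome 9, 116084293 to 116175360, minus strand) encodes the type II receptor that binds ligand first. It measured 59.4, 71.7, 58.8 and 70.5 CPM in WT and 39.2, 39.4, 52.4 and 41.6 CPM in TAZG197V. No TAZG197V library reached the lowest WT library, and TAZG197V 3 came nearest. The mean fell from 65.1 ± 6.97 to 43.2 ± 6.24 CPM (SD, n = 4 each), a log2 fold change of -0.58 with a standard error of 0.119 (95% interval -0.85 to -0.31, edgeR adjusted p = 0.00606). It passed in all 17 other fits, from -0.67 to -0.53.

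Tgfbr3 (ENSMUSG00000029287, chromosome 5, 107106570 to 107289629, minus strand), the betaglycan gene, measured 49.2, 49.1, 45.8 and 70 CPM in WT and 40.2, 44.4, 40.1 and 51.1 CPM in TAZG197V. WT 4 stood above the other WT libraries and TAZG197V 4 overlapped them. The log2 fold change was -0.30 ± 0.082 (standard error, 95% interval -0.48 to -0.11, edgeR adjusted p = 0.0219). The call rests on the choice of fit: 11 of 17 other fits passed, and without WT 4 the log2 fold change was -0.16 (edgeR adjusted p = 0.0995).

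Tgfbr1 (ENSMUSG00000007613, chromosome 4, 47353222 to 47414931, plus strand) encodes the type I receptor kinase. Its level was 26.3, 36.0, 25.4 and 27.1 CPM in WT and 24.2, 21.8, 24.7 and 26.7 CPM in TAZG197V. WT 2 was the highest library and the remaining values overlapped. The log2 fold change was -0.17 (95% interval -0.33 to -0.02) with an edgeR adjusted p of 0.078, and 2 of 17 other fits passed, among them the fit without both number 4 libraries (-0.31, edgeR adjusted p = 0.0228). With single libraries left out it ran from -0.31 without TAZG197V 4 to -0.09 without TAZG197V 2, and none of these fits passed. The log2 ratio of Tgfbr2 to Tgfbr1 went from 0.86 ± 0.16 to 0.49 ± 0.20 (exact permutation p = 0.0571, adjusted 0.1), and that of Tgfbr3 to Tgfbr2 from 0.03 ± 0.22 to 0.35 ± 0.30 (exact permutation p = 0.143, adjusted 0.167). Both ratios overlapped between genotypes.

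Ltbp1 (ENSMUSG00000001870, chromosome 17, 75005568 to 75392512, plus strand), whose product tethers the latent ligand to matrix, fell furthest of the 9 genes. Its level was 76.2, 77.3, 59.4 and 83.5 CPM in WT and 31.1, 31.8, 34.9 and 38.0 CPM in TAZG197V. The groups were far apart, with the highest TAZG197V library below the lowest WT library. The mean fell from 74.1 ± 10.3 to 33.9 ± 3.17 CPM (SD, n = 4 each), and the log2 fold change was -1.11 ± 0.0897 (standard error, 95% interval -1.32 to -0.91, edgeR adjusted p = 6.48e-05). All 17 other fits passed, from -1.20 to -1.05. Per kilobase, Ltbp1 stood at 6.93 ± 0.966 CPM in WT, overlapping its neighbours Tgfbr2 and Tgfb3 in the order of levels. In TAZG197V it was 8th of the 9 genes at 3.18 ± 0.296, overlapping Tgfbr1 above it and not Tgfb1 below it.

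Markers of several cell types were lower as well, among them those of cardiomyocytes given above. The 7 fibroblast markers summed to 879 to 1490 CPM in WT and 607 to 823 CPM in TAZG197V, and 4 of the 7 were called lower. The 5 pericyte and smooth muscle markers summed to 687 to 925 and 594 to 662 CPM, with 3 of 5 called lower, and the 6 endothelial markers to 762 to 1050 and 626 to 780 CPM, with 2 of 6 called lower. The 5 activated fibroblast markers summed to 117 to 278 CPM in WT and 251 to 424 CPM in TAZG197V, and 1 of the 4 tested, Acta2, was called higher. The list did not rise as a whole, since the median log2 fold change of the 4 was -0.11. Without both WT 4 and TAZG197V 4 the median was -0.46, with 1 called higher and 1 lower. The part of these markers in the falls of Tgfb1, Tgfbr2, Tgfbr3 and Ltbp1 was not tested.

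Both Ccn genes were called higher, and both varied widely. Ccn1 (ENSMUSG00000028195, chromosome 3, 145646976 to 145649981, minus strand), formerly Cyr61, measured 54.5, 71.9, 68.6 and 37.9 CPM in WT and 117, 126, 70.9 and 65.9 CPM in TAZG197V. TAZG197V 1 and 2 were high, while TAZG197V 3 and 4 lay among the WT libraries. The mean went from 58.2 ± 15.5 to 94.9 ± 31 CPM (SD, n = 4 each), with a log2 fold change of 0.77 and a standard error of 0.178 (95% interval 0.37 to 1.18, edgeR adjusted p = 0.0101). The call was lost without surrogate variables (0.70, edgeR adjusted p = 0.0741) and without WT 4 (0.57, edgeR adjusted p = 0.0527).

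Ccn2 (ENSMUSG00000019997, chromosome 10, 24595442 to 24598683, plus strand), formerly Ctgf, measured 53.1, 104, 59.1 and 49.7 CPM in WT and 108, 106, 97.6 and 171 CPM in TAZG197V. WT 2 overlapped the TAZG197V range, TAZG197V 4 was the highest of all, and the remaining 3 WT libraries lay below every TAZG197V library. The mean rose from 66.5 ± 25.3 to 121.0 ± 34.0 CPM (SD, n = 4 each), a log2 fold change of 1.01 with a standard error of 0.102 (95% interval 0.77 to 1.24, edgeR adjusted p = 0.0002). The size varied between fits. The log2 fold change was 0.81 with all libraries and 1 surrogate variable (edgeR adjusted p = 0.0379), 0.66 without WT 4 (0.0274), 0.55 without TAZG197V 4 (0.0783) and 0.55 without both (0.011), and these fits without libraries also had 1 surrogate variable in place of 2. Of the exon bases of Ccn2 23.2% lie in the antisense gene Gm15270, which had 12 to 42 counts per library against at least 1113 for Ccn2. The strand setting of the counting was not stated.

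The Ccn genes differed in which libraries were high. The log2 ratio of Ccn2 to Ccn1 was -0.34 ± 0.35 in WT and -0.13 ± 0.74 in TAZG197V, from -0.75 in TAZG197V 2 to 0.88 in TAZG197V 4, and did not differ beyond this spread (exact permutation p = 0.743, adjusted 0.743). Per kilobase they were the most abundant of the 9 genes in both genotypes, Ccn1 at 28.8 ± 7.7 and 47.0 ± 15.3 CPM and Ccn2 at 23.2 ± 8.84 and 42.3 ± 11.9 CPM, and overlapped each other in both. No library of Tgfbr3, the next gene in that order, reached them.

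Lane 7 held libraries 1 and 2 and lane 8 libraries 3 and 4 of both genotypes, so the difference could be taken within each lane, over 2 libraries a genotype and without a test. In mean log2 CPM, Tgfb2 was higher by 1.18 and 1.45 in lanes 7 and 8, Ccn1 by 0.95 and 0.42, and Ccn2 by 0.53 and 1.25. Ltbp1 differed by -1.29 and -0.95, Tgfbr2 by -0.73 and -0.46, Tgfb1 by -0.26 and -0.55, and Tgfbr3 by -0.22 and -0.32. For these 7 called genes the direction was the same in both lanes. They were called from these same libraries, so the shared direction is not a separate check. Tgfb3 differed by -0.06 and 0.24 and Tgfbr1 by -0.42 and -0.03.

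**Figure D3:**
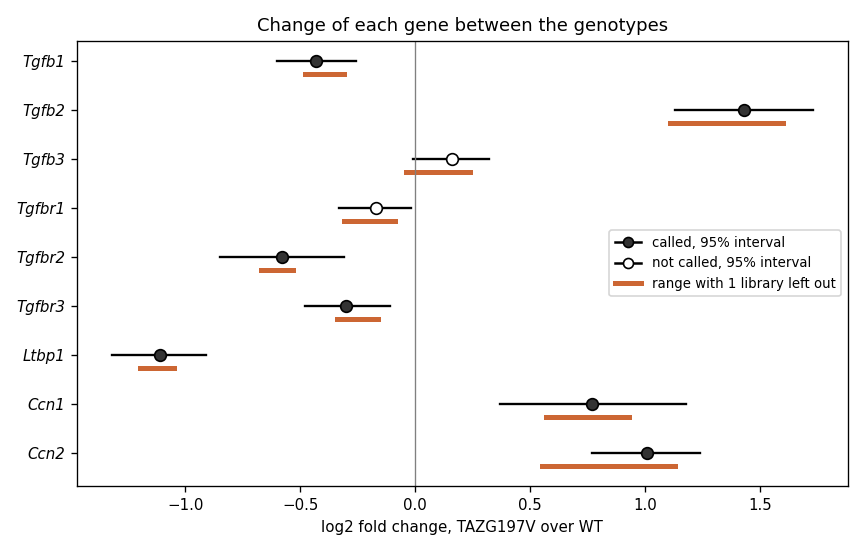
Log2 fold change of each gene, TAZG197V over WT, with its 95% interval (black; filled points were called) and, in orange, the range of the fitted value when each library in turn was left out. Tgfb2, Ccn1 and Ccn2 lie above 0 throughout; the range of Tgfb3, -0.04 to 0.24, includes 0, and that of Ccn2 reaches down to 0.55.

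Genes with the most similar profile over the 8 libraries were sought among 10073 protein-coding genes, by the root mean square difference of centred log2 CPM. For Ltbp1 the nearest were Bmper (0.0835), a secreted BMP regulator, Fkbp10 (0.0983), a chaperone of collagen folding, and Plcl1 (0.1). For Tgfb2 they were Ttll7 (0.138), Morn4 (0.192) and Rtn4 (0.203), the reticulon gene, which rose from 88.3 to 233.0 CPM. For Tgfbr2 they were Zfp516 (0.0719), Icam1 (0.0751), an adhesion molecule of endothelium, and Lrp1 (0.078), an endocytic receptor. For Tgfb1 they were Zfp449 (0.0427), Sipa1 (0.0502) and Gon4l (0.0538), and for Tgfbr3 Castor2 (0.0724), Tmcc2 (0.0778) and Ppp2r1b (0.0779). The Ccn genes had less close neighbours, Plk2 (0.174), Inpp5j (0.195) and Polr1e (0.217) for Ccn1 and Dpysl3 (0.24) and Rdh11 (0.245) for Ccn2. None of the 9 genes was itself searched, and a gene with a small change and little spread has close neighbours more readily.

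Among 17 genes of latent TGF-beta storage and activation, 1 was called higher and 8 lower, with a median log2 fold change of -0.35. That is 52.9% of the list, beside 33.5% of all genes tested. Without both number 4 libraries 1 was called higher and 10 lower, with a median of -0.47. Itgb6, which encodes the beta chain of an epithelial integrin that frees TGF-beta, fell from 21.5 to 24.8 CPM in WT to 7.02 to 10.3 CPM in TAZG197V (log2 fold change -1.51, standard error 0.119, edgeR adjusted p = 5.82e-05). Itgb3 was lower at -1.91 (edgeR adjusted p = 0.0042, and 0.0579 with lane as covariate). For this integrin chain, which platelets also carry, WT 4 had 32.9 CPM against 4.09 to 6.10 CPM in the other WT libraries, and the log2 fold change was -0.94 without WT 4 and -1.08 without TAZG197V 4. The part of the platelet markers, also highest in WT 4, was not tested. Itgb8, another activating integrin chain, was called at -0.75 (edgeR adjusted p = 0.0492) and passed in 7 of 17 other fits, at -0.43 without WT 2 and -1.48 without TAZG197V 4. Dcn, which encodes the TGF-beta binding proteoglycan decorin and is also one of the fibroblast markers, was lower at -0.54 (edgeR adjusted p = 0.00907) and at -0.42 without TAZG197V 2 (0.0569). Itgb5 was the gene called higher, from 100.0 to 106 CPM in WT to 123 to 131 CPM in TAZG197V (log2 fold change 0.32, edgeR adjusted p = 0.0021). Thbs1, an activator of latent TGF-beta, was not called (-1.09, edgeR adjusted p = 0.0663) but passed in 6 of 17 other fits, among them that without both number 4 libraries (-1.09, 0.0248). Not called either was Ltbp2 (0.11, edgeR adjusted p = 0.636), whose sign turned without either number 4 library (-0.78 without WT 4 and -0.80 without TAZG197V 4) and which passed as lower without both (-0.65, 0.0423).

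Of 14 SMAD genes and their regulators, 2 were called higher and 2 lower (median -0.05), and 1 and 2 without both number 4 libraries (median -0.06). The main fit called 28.6% of this list, beside 33.5% of all genes tested. Of the SMADs that the TGF-beta receptors phosphorylate, Smad2, which the naming rule does not cover, was not called (-0.11, edgeR adjusted p = 0.207). Smad3 measured 22.0 to 28.5 CPM in WT and 14.8 to 19.3 CPM in TAZG197V (log2 fold change -0.56, edgeR adjusted p = 0.00656), and Ski, a SMAD corepressor, was lower at -0.28 (edgeR adjusted p = 0.00341). Bambi, a decoy receptor that dampens TGF-beta signalling, measured 13.6 to 22.4 CPM in WT and 28.5 to 32.3 CPM in TAZG197V (log2 fold change 0.84, edgeR adjusted p = 0.00257). Pmepa1, a feedback inhibitor induced by TGF-beta, was higher by 0.59 (edgeR adjusted p = 0.0058), overlapped between genotypes and was at 0.33 without WT 4 (edgeR adjusted p = 0.0639). The feedback genes Smad7 (-0.02, edgeR adjusted p = 0.937) and Skil (0.16, edgeR adjusted p = 0.254) were not called. Smad7 ran from -0.12 to 0.16 over the 17 other fits and passed in none. Skil passed in 1 of them, at 0.28 without TAZG197V 3 (edgeR adjusted p = 0.0419), and was at 0.07 without TAZG197V 4.

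Of 19 genes known as TGF-beta targets, 3 were called higher and 2 lower, with a median log2 fold change of -0.02 beside -0.01 over all genes tested. The main fit called 26.3% of this list, beside 33.5% of all genes tested. Cdkn1a, the cell cycle inhibitor p21, which also responds to other stresses, went from 18.0 to 33.2 CPM to 112 to 160 CPM (2.34, edgeR adjusted p = 6.28e-05). Acta2, smooth muscle actin and a marker of myofibroblasts, went from 72.3 to 187 CPM to 202 to 387 CPM (1.16, edgeR adjusted p = 0.0159), and Pmepa1 was the remaining rise. Col1a2, a collagen I chain, was lower at -0.35 (edgeR adjusted p = 0.0283), and at -0.25 without TAZG197V 2 (0.138) and -0.54 without WT 4 (0.0305), with 9 of 17 other fits passing. Tagln was lower at -0.74 (edgeR adjusted p = 0.033) with 67.9% of its exon sequence shared with other genes, 7 of 17 other fits passed, and it ran from -0.43 without WT 1 to -1.71 without TAZG197V 4. Postn, a matricellular gene of activated fibroblasts, was at 27.2 to 116 CPM in WT and 29.3 to 42.6 CPM in TAZG197V (-0.08, edgeR adjusted p = 0.68), from -0.82 without WT 4 to 0.13 without WT 2, and passed as lower without both number 4 libraries (-0.63, 0.0429). Without both number 4 libraries the list had 2 calls higher and 4 lower, with a median of -0.25.

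**Figure D4:**
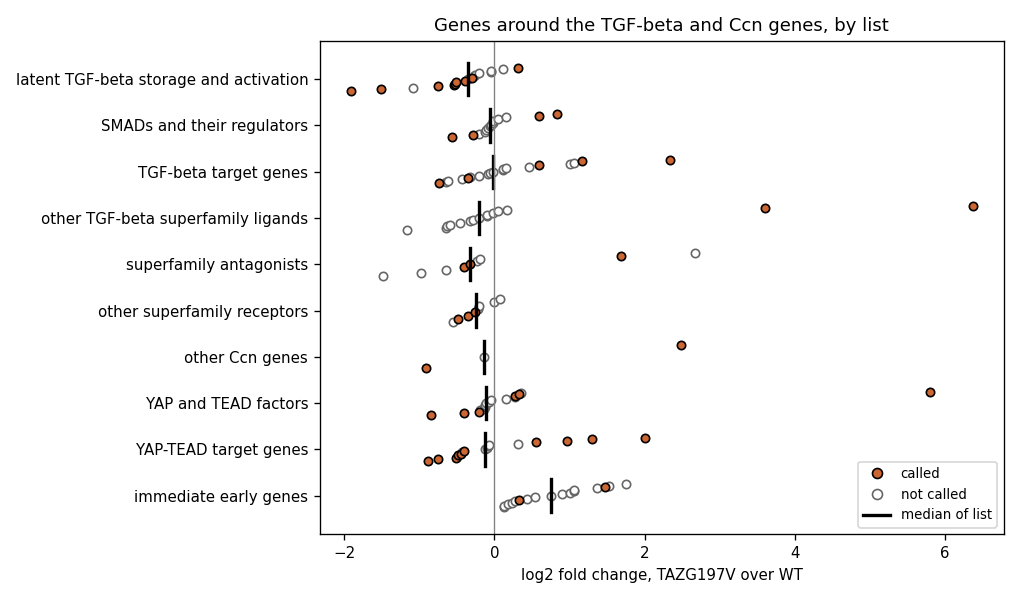
Log2 fold change (TAZG197V over WT) of every tested gene in 10 lists around the pathway; filled points were called and the black bar is the median of the list. The TGF-beta target list centres at -0.02, latent storage and activation at -0.35 and the immediate early genes at 0.75.

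Among the other ligands of the superfamily 15 of 19 were abundant enough to be tested, and 2 were called higher and none lower (median -0.20). The share called was 13.3% of the 15, beside 33.5% of all genes tested. Without both number 4 libraries 2 were called higher and 2 lower, with a median of -0.43. Inhba, which encodes the subunit of activin A, measured 2.33, 11.1, 2.14 and 0.982 CPM in WT and 28.1, 24.6, 16.5 and 40.3 CPM in TAZG197V. WT 2 was the highest WT library, and the groups did not overlap. The log2 fold change was 3.61 ± 0.193 (standard error, edgeR adjusted p = 8.82e-06), and all 17 other fits passed. It was 2.25 without WT 4 and 2.2 without TAZG197V 4. Gdf15, a stress-induced ligand, was higher by 6.37 (edgeR adjusted p = 3.74e-07).

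The antagonists of the superfamily gave 1 call higher and 2 lower among 9 tested (median -0.32), and 1 higher and 3 lower without both number 4 libraries (median -0.49). The main fit called 33.3% of this list, beside 33.5% of all genes tested. Nog, which encodes the BMP antagonist noggin and is outside the naming rule, had the largest fitted rise of the list and was left uncalled by its mean count alone. It measured 0.135 to 0.311 CPM in WT and 1.10 to 1.81 CPM in TAZG197V (log2 fold change 2.67, edgeR adjusted p = 0.000236), and all 17 other fits passed the adjusted p. Fstl3, a follistatin-like inhibitor of activins, measured 0.848 to 1.90 CPM in WT and 2.29 to 5.32 CPM in TAZG197V (log2 fold change 1.68, edgeR adjusted p = 0.00241), with 47.3% of its exon bases in other genes. Twsg1 and Chrd, both extracellular BMP regulators, were lower at -0.32 and -0.40 (edgeR adjusted p = 0.0021 and 0.0423). Fst, the follistatin gene and also outside the naming rule, was not called. It ran from -1.29 to -0.82 over the 17 other fits and passed the adjusted p in 12 of them. Of the 8 other receptors tested, none was called higher and 3 lower (37.5% of the list beside 33.5% of all genes tested, median -0.24). These were Eng, the endothelial coreceptor endoglin (-0.48, edgeR adjusted p = 0.0182), Acvrl1, the endothelial type I receptor ALK1 (-0.35, edgeR adjusted p = 0.0112), and Acvr1b, the activin type I receptor (-0.26, edgeR adjusted p = 0.034). Of the 6 endothelial markers 2 were also called lower, as given above, and their part in these falls was not tested. These calls were not firm: without WT 4 Eng was at -0.35 (edgeR adjusted p = 0.0802), without WT 1 Acvrl1 was at -0.29 (0.0623) and Acvr1b at -0.22 (0.0974), and Acvr1b passed in 9, Eng in 11 and Acvrl1 in 15 of 17 other fits. Chrd passed in 8 of 17, and without TAZG197V 1 it was at -0.34 (edgeR adjusted p = 0.127).

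**Figure D5:**
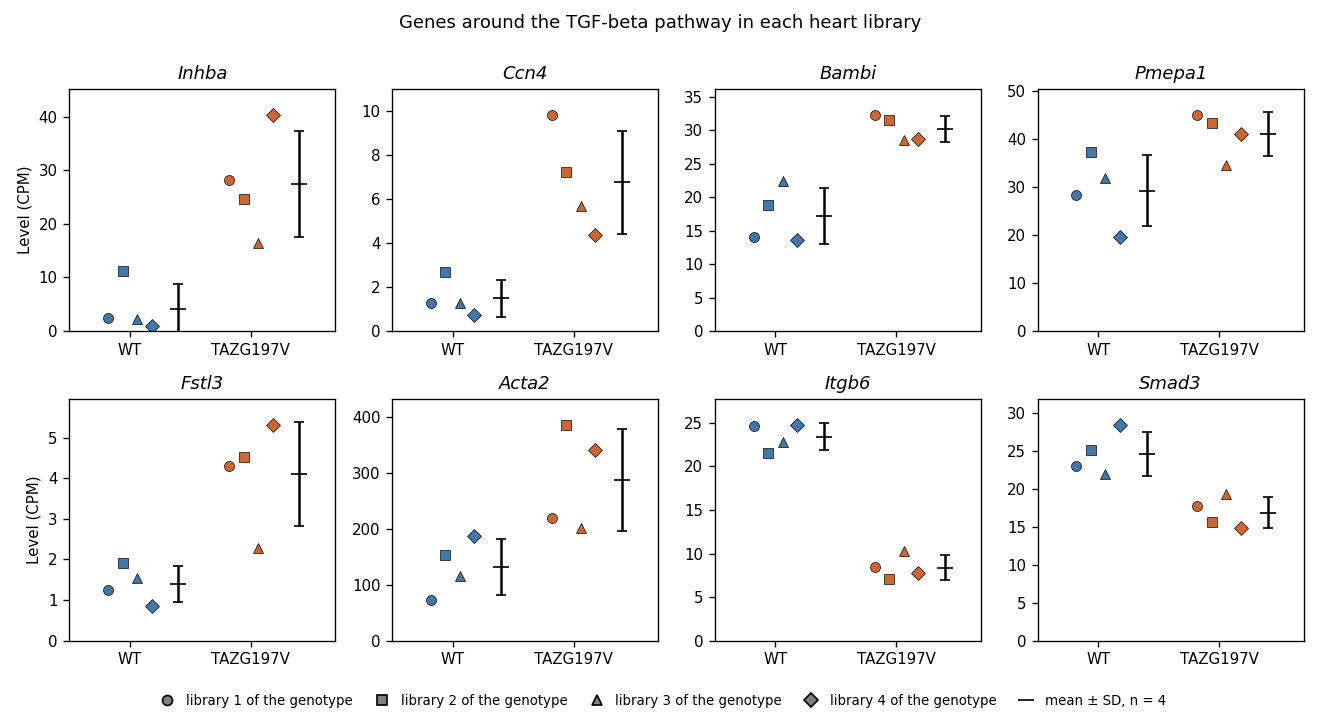
Level (CPM, linear axis from 0) of 8 surrounding genes in each library; marker shapes give the library number and black bars the mean ± SD of 4 libraries. Inhba at 16.5 to 40.3 CPM and Ccn4 at 4.36 to 9.81 CPM in TAZG197V lie above all WT libraries, and Itgb6 and Smad3 lie below them.

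The other Ccn genes did not move as a block. Ccn4, formerly Wisp1 and a Wnt-responsive gene, measured 1.29, 2.69, 1.28 and 0.714 CPM in WT and 9.81, 7.21, 5.68 and 4.36 CPM in TAZG197V, with no overlap. Its log2 fold change was 2.49 ± 0.221 (standard error, edgeR adjusted p = 0.000105), and all 17 other fits passed. Ccn3, formerly Nov, was called lower at -0.91 (edgeR adjusted p = 0.00456), although WT 2 had 18.9 CPM, TAZG197V 4 had 7.26 CPM and the remaining libraries had 1.90 to 4.73 CPM. Without WT 2 it was at -0.63 (edgeR adjusted p = 0.0991) and without TAZG197V 4 at -2.14 (0.0198). Ccn5 was not called (-0.14, edgeR adjusted p = 0.715) and ran from -0.63 without WT 4 to 0.11 without TAZG197V 3. Ccn6, at no more than 0.135 CPM in any library, was too low to be tested.

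Of 17 YAP and TEAD factors and their regulators, 3 were called higher and 3 lower (35.3% of the list beside 33.5% of all genes tested, median -0.11). Wwtr1, the YAP partner named TAZ, was higher by 0.28 (edgeR adjusted p = 0.00482), and Yap1 was lower at -0.21 (edgeR adjusted p = 0.0186). Wwtr1 was at 0.18 without WT 4 (edgeR adjusted p = 0.0537) and Yap1 at -0.20 without WT 1 (0.0736), and both passed in 14 of 17 other fits. Vgll2, a TEAD cofactor of skeletal muscle, was barely present in WT, at 0.0388 to 0.275 CPM, and reached 3.20 to 4.10 CPM in TAZG197V (log2 fold change 5.80, edgeR adjusted p = 6.84e-06). Mob1b, an activator of the LATS kinases, was higher by 0.33 (edgeR adjusted p = 0.00483), and by 0.22 without TAZG197V 4 (0.0718). Tead3 was lower at -0.40 (edgeR adjusted p = 0.00706), and Vgll3 was lower at -0.85 (edgeR adjusted p = 0.033), passed in 8 of 17 other fits and was at -0.58 without WT 3 (edgeR adjusted p = 0.101).

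Known YAP-TEAD target genes other than Ccn1 and Ccn2 were split, with 4 called higher and 6 lower among 17 tested (median -0.13), and 3 higher and 8 lower among 18 tested without both number 4 libraries (median -0.26). The main fit called 58.8% of this list, beside 33.5% of all genes tested. Ankrd1, a stretch-responsive gene of cardiomyocytes, measured 1240, 2030, 1630 and 303 CPM in WT and 4350, 4890, 3020 and 3400 CPM in TAZG197V. WT 4 was far below the other WT libraries, and the log2 fold change of 2.01 (edgeR adjusted p = 0.00215) was 1.27 without it (edgeR adjusted p = 0.00224). Nt5e, the ectonucleotidase CD73, was higher by 1.30 (edgeR adjusted p = 1.38e-05), Crim1 by 0.55 (edgeR adjusted p = 0.00021) and Gadd45b by 0.97 (edgeR adjusted p = 0.0324), the last passing in 6 of 17 other fits and at 0.35 without TAZG197V 4. Lower were Arhgef17 (-0.89, edgeR adjusted p = 4.91e-05), Dock5 (-0.75, edgeR adjusted p = 0.000611), Igfbp3 (-0.51, edgeR adjusted p = 0.00466, and 0.105 with lane as covariate) and Axl, a receptor kinase (-0.48, edgeR adjusted p = 0.0217, and -0.40 without TAZG197V 2, where the adjusted p was 0.0951).

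Ccn1 and Ccn2 are also immediate early genes, which respond quickly to handling of tissue. The 17 other immediate early genes tested had a median log2 fold change of 0.75, and 2 were called, both higher, which is 11.8% of the list beside 18.5% called higher over all genes tested. Without both number 4 libraries the median was 0.90 and 4 were called, all higher. Junb, a gene chosen after its values were seen, measured 32 and 51.1 CPM in TAZG197V 1 and 2, the libraries with the highest Ccn1 levels. It measured 8.83 to 15.6 CPM in the other 6 libraries, among them TAZG197V 4, where Ccn2 was highest. Its log2 fold change was 1.06 (edgeR adjusted p = 0.126), 0.65 without TAZG197V 2 (0.314) and 1.33 without TAZG197V 3 (0.026). A gene picked in this way gives no test of a link to Ccn1 or Ccn2. Atf3, a stress-response factor, measured 2.99 to 12.5 CPM in WT and 11.8 to 14.7 CPM in TAZG197V (1.47, edgeR adjusted p = 8.99e-05), and Jund was higher by 0.33 (edgeR adjusted p = 0.0234), with 52.6% of its exon bases in other genes. Without WT 4 Atf3 was at 0.81 (edgeR adjusted p = 0.0703), and without TAZG197V 4 Jund was at 0.24 (0.114). The part of tissue handling in the levels of Ccn1 and Ccn2 was not tested.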

How the data were processed

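RNA was sequenced from heart pieces in 4 WT and 4 TAZG197V libraries as 50-base single-end reads. According to the labels and methods of the study, the authors demultiplexed reads with bcl2fastq 2.20.0, checked them with FastQC 0.11.9, aligned them to mm10 with STAR 2.7.3a and counted reads per gene with featureCounts (Subread 2.0.0). The deposited files hold raw counts of reads for each Ensembl gene. The release of the annotation, strand setting and handling of reads with several alignments are not given in the sources used here, so values of overlapping genes are uncertain. Each table held 55471 gene rows and 92 spike-in rows, which summed to 0 and were left out. Symbols, positions and exon lengths came from GENCODE M21 on GRCm38, the assembly of mm10, with 55230 IDs matched.

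Counts were fitted in R 4.3.3 with edgeR 4.0.16 (filterByExpr, TMM, quasi-likelihood F-test, two-sided, Benjamini-Hochberg over 15084 genes), with 2 surrogate variables from svaseq in sva 3.50.0 (genotype protected, seed 1). CPM values and ratios are not adjusted for these variables. The standard error is the log2 fold change divided by the square root of F. Ratios between the genes were compared by exact permutation of the 8 libraries. Alternatives were DESeq2 1.42.0, other scalings, covariates, filters and cut-offs, and fits without each library, with surrogate variables estimated again. The fit without both number 4 libraries was added after seeing the data. The test was checked on simulated counts. The labels number the replicates and the names of the deposited tables give a lane, but neither states that each is a separate mouse, so p-values measure the spread between these samples, which may be partly technical. A chi-square statistic of at least 10.2 per gene within a genotype left no library as a repeat of another. Library totals were 23055689 to 36301031 counts. Counting error is a larger part of the spread for genes of low count, such as Tgfb1 with 315 to 593 counts per library and Tgfb2 with 201 counts in WT 4. It is larger still for Vgll2 and Nog, whose WT levels given above were far lower, so the size of their rises is uncertain.

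The 9 genes and the gene lists were chosen with earlier results of these data known. Named from each list were up to 4 called genes a direction with the largest change, a set of pathway genes whatever their result (Smad7, Skil, Pmepa1, Postn, Thbs1, Ltbp2, Bambi, Ankrd1, Yap1, Wwtr1, Gdf15 and Ccn3 to Ccn6), and the 3 nearest profiles of each called member among genes with a mean of at least 5 CPM. Some genes that meet this rule are not reported here. Promoter sequences are those of RefSeq on GRCm38.p6.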

Additional observations from a re-analysis of the deposited data

Results flagged for a closer look

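In each genotype of 4 libraries, the gap between the most extreme library and its nearest neighbour was compared with the whole range for each of the 9 genes, 18 groups in all. About 1 group in 20 exceeds the 95% critical value of 0.829 by chance, and 2 did. Tgfb1 was low in TAZG197V 4, at 11.6 CPM against 13.6 to 13.9 CPM, with a gap of 0.877 of the range. Tgfbr3 was high in WT 4, at 70 CPM against 45.8 to 49.2 CPM, with a gap of 0.833. Both libraries carried the high neural marker levels, and WT 4 also the high red cell and platelet marker levels. The part of these in the values was not tested.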

How the results depend on the processing

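Besides the fits without 1 library, which are given as ranges, 9 alternatives were fitted to each gene. Tgfb1, Tgfb2, Tgfbr2 and Ltbp1 kept direction and call in all 17 fits. Raising the fold cut-off to 1.5 left 1843 genes called and only Ltbp1, 1 gene, among those called lower. Upper-quartile scaling gave -0.22 for Tgfbr1 (edgeR adjusted p = 0.0369), and omission of both number 4 libraries -0.31. Without surrogate variables Tgfbr3 was at -0.28 and Ccn1 at 0.70, and with lane as covariate Tgfbr3 was at -0.28, none past the threshold. The sign of Tgfb3 turned without a low-count filter (-0.01) and without both number 4 libraries (-0.05). With each library left out in turn, log2 fold changes ran from -0.04 to 0.24 for Tgfb3, -0.31 to -0.09 for Tgfbr1, -0.34 to -0.16 for Tgfbr3, 0.57 to 0.93 for Ccn1 and 0.55 to 1.13 for Ccn2, and the difference in the log2 ratio of Ccn2 to Ccn1 from -0.13 to 0.41. The cause was not tested. Over these fits 3675 to 4816 genes were called. The same-number libraries' deviations from their group means correlated at 0.277, 0.0436, 0.28 and 0.416, not all above 0.1, so the numbers were not taken to pair the mice. The replicate block gave 4272 called genes and the same calls among the 9 genes. With 3 libraries against 4 the exact test of a ratio cannot go below 0.0571.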
